A study of Mus musculus with 4 samples.

Results

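Apoe and 9 genes listed with it (Gngt2, Clec4a3, Clec4a1, Pla2g7, Tppp3, Sirpb1c, AF251705, Ace and Treml4) were followed in single sorted bone marrow monocytes of young and old mice. The members were taken by their symbols, and all 10 were found among the 27998 genes of both data sets. They had been listed with earlier results of these cells in view, so which members are present, that they appear in the same cells, and how many of them changed with age are descriptions of the list and not evidence about it. The mice were wild-type C57BL/6 without further treatment, and the marrow cells of 10 females and of 10 males, with 5 mice per age, were hashtagged by mouse, pooled by sex and sorted as classical monocytes (Ly6G-, CD11b+, CD115+ and Ly6C-high), which gave 1 library per sex. Young mice were 14 weeks (males) or 15 weeks (females) and old mice 27 months (males) or 26.5 months (females) of age, as the methods of the study give them. The comparison between the ages addresses how aging alters classical monocytes, and the mouse was the replicate throughout. Sex, experiment and these differences in age between the sexes cannot be told apart in this design.

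Classical monocytes are made in the marrow, circulate for a short time and can turn into Ly6C-low monocytes that patrol the vessel wall, a conversion that depends on the nuclear receptor Nr4a1 and goes with loss of Ly6C and gain of CX3CR1. Ace, the angiotensin-converting enzyme, and Treml4, a TREM-like receptor, are known from Ly6C-low monocytes. Apoe encodes apolipoprotein E, which carries lipid between cells, and Pla2g7 a secreted lipase that breaks down platelet-activating factor and oxidized phospholipids. Gngt2 encodes a gamma subunit of heterotrimeric G proteins and Tppp3 a member of a family of tubulin-binding proteins. Clec4a1 and Clec4a3 are C-type lectin receptors of the DCIR family, Sirpb1c is a signal regulatory protein of the beta type, and AF251705, named Cd300c2 by RefSeq, is a receptor of the CD300 family. The Clec4a and Sirpb1 genes have close relatives, so that the division of reads between near-identical copies is uncertain for these members.

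The members lie on 6 chromosomes of GRCm38. Clec4a1 (chr6:122921848-122934619) and Clec4a3 (chr6:122952515-122969875) are neighbours on the plus strand, and Apoe lies at chr7:19696109-19699188 on the minus strand. Gngt2, Ace and AF251705 are on chromosome 11, Pla2g7 and Treml4 on chromosome 17, Tppp3 on chromosome 8 and Sirpb1c on chromosome 3, and all 10 are annotated as protein coding. The RefSeq promoter windows (GRCm38.p6, from 250 bases before to 50 bases after a start) hold 8 of the 10 members with 12 starts, and Gngt2 and Tppp3 are named only. Printed here are a window of Apoe and that of Pla2g7, the lipid genes among the members. Over all cells Pla2g7 was called higher in old females and Apoe was not called. The window of AF251705 is also printed, the one with matches of more than 1 motif. Capitals mark motif matches, and the first 2 windows have none.
Apoe (chr7:19699139-19699438, minus strand): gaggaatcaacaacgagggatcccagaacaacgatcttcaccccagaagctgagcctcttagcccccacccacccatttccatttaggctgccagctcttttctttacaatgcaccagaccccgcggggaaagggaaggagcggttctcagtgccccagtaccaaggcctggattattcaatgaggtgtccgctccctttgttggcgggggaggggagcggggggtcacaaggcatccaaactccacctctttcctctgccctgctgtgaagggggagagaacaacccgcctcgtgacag
Pla2g7 (chr17:43568201-43568500, plus strand): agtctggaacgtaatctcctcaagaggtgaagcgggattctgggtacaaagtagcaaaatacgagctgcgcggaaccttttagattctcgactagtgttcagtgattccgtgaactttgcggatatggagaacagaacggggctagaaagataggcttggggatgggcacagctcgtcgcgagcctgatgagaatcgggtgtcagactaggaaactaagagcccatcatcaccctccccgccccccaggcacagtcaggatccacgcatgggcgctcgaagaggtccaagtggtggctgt
AF251705 (chr11:115001831-115002130, minus strand): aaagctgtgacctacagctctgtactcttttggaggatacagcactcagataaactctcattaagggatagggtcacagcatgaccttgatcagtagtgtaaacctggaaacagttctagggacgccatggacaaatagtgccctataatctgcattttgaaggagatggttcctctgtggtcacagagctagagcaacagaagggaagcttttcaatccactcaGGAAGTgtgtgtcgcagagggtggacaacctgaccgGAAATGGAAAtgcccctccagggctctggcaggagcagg
The letters GGAAGT (an ETS core, which also lies within the PU.1 motif GAGGAAGT) and those of an interferon-stimulated response element, on either strand, matched the window of AF251705. Of the 32851 promoter windows, 23.8% hold GGAAGT and 3.44% hold the response element. Among the members, GGAAGT was found in 3 genes (Sirpb1c, AF251705 and Treml4). The NR4A motif AAAGGTCA (1.51% of all windows), the C/EBP motif TTNNGCAA (10.8%), GAGGAAGT (3.2%) and the nuclear receptor direct repeat DR4 (0.0152%) were in none of the 12 member windows. A match is a stretch of letters and not a site that was shown to be bound.

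Of 10433 female barcodes, 7604 were assigned to a mouse, and of 1227 male barcodes, 1226. HTODemux, the hashtag method the study used, called 85.3% of the assigned female cells and 67.4% of the assigned male cells singlets, and the rest doublets or negative. The libraries shared 0 barcodes. Young females had 245 to 1837 cells and old females 434 to 1128, and their mouse medians were 8398 to 9477 and 10106 to 15275 UMIs per cell, so cells of old females were deeper. Males were shallower, with 3806 to 4456 UMIs per cell in young and 4490 to 8844 in old mice, and old male 4 had only 49 cells, the fewest of any mouse. Summed marker levels of marrow macrophages (10 markers, 0 of them absent) were 73.6 to 86.4 counts per 1000000 UMIs (CPM) in young and 69.6 to 105 CPM in old females. The 5 neutrophil markers summed to 119 to 1131 CPM in young females and 8.71 to 209 CPM in old females, and to 11.5 to 3897 and 17.1 to 4357 CPM in young and old males, with 0 of them absent in either sex; their part in the results was not tested. Some clusters were led by genes of cell types outside the sort. In females these were a cluster of 74 cells (T and NK cell genes) and one of 32 cells (pituitary hormone genes). In males they were one of 53 cells (Fcer1a, Gata2 and Mcpt8) and one of 9 cells (Camp, Ngp and Ltf). The 53 cells also had Cd7 and Cd209a among their leading genes. In them 5 of 5 basophil markers and 5 of 5 markers of dendritic-like monocytes were at least 2-fold higher. In the 74 cells, markers of mature Ly6C-high monocytes were near the level of the other cells (median log2 difference -0.0092). What kinds of cells these clusters hold was not tested. Without these clusters each member tested kept the direction and the call given here.

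In females, the 10 members had their highest level in the same cluster, but some were found widely. Clec4a3 and Clec4a1 had a UMI in 69.7% and 66.6% of all female cells. Pla2g7 and Tppp3 were at 199 and 117 CPM in cluster 0 and nearly as high, at 180.5 and 105 CPM, in cluster 7 (146 cells). Cells were clustered without the members and without the genes of the fixed lists on Ly6C-low monocytes and lipid handling, yet genes that vary with them remained, so the levels by cluster are a description. Cluster 0 (1339 cells), led by Tppp3, Apoe, Adgre4, MHC class II genes, Batf3, Gngt2 and Cd74, had the highest level of all 10 members, although Clec4a3 at 546 CPM over its cells was little above cluster 10 (539 CPM), a group of 129 cells led by interferon-stimulated genes. Apoe reached 2279 CPM in cluster 0, 1842 CPM in cluster 10, 755 CPM in cluster 6 (led by Slfn5 and Vcan) and 194 CPM in cluster 3 (led by Hist1h2bc, Tcp11l2 and Fn1). It was lower in the dividing clusters, at 76.0 CPM in cluster 1 (G2 or M phase genes), 39.7 CPM in cluster 2 (histone genes) and 58.1 CPM in cluster 4 (S phase genes). It was lowest, at 26.6 CPM, in cluster 9, led by the granule protein genes Mpo and Elane. Gngt2 followed the same order at its ends, with 589 CPM in cluster 0 and 16.7 CPM in cluster 9, and Ace and Treml4 were highest in clusters 0 and 10, with 46.0 and 31.1 CPM in cluster 0, 31.4 and 13.3 CPM in cluster 10 and at most 3.93 and 9.34 CPM in the other clusters.

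Part of the wide detection of these genes is shared with cells that hardly carry them. Apoe had at least 1 UMI in 87.5% of the cells of cluster 0, at a median of 7061 UMIs per cell, and in 43.9% (95% exact binomial interval 40.04 to 47.9%) of the 642 cells of cluster 9, at a median of 25987 UMIs. The level in cluster 9 is 26.6 CPM, so this share comes with few Apoe molecules in deep cells. Free RNA in the droplets is not separated from expression here, and a UMI of Apoe does not by itself mark a cell that makes it. Cluster 5, the 74 cells led by T and NK cell genes, had a median of 13287 UMIs. Apoe was in 58.1% (46.1 to 69.5%) of its cells at 360.1 CPM. Clec4a3 and Clec4a1 were each in 74.3% (62.8 to 83.8%), so clusters 5 and 9 differ. Markers of mature Ly6C-high monocytes were on average in 75.9% of the cells of cluster 5, and its values were not taken as a level of free RNA. For Gngt2 the shares in clusters 0 and 9 were 86.4% and 31.0%, for Pla2g7 58.7% and 5.30%, and for Tppp3 26.5% and 1.09%.

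Cluster 0 was given no cell type name, because markers of several kinds were higher in it. Of the 8 markers of Ly6C-low monocytes, 7 were at least 2-fold higher there than in the other cells, but so were 7 of 10 marrow macrophage markers and 4 of 5 markers of dendritic-like monocytes, and those 4 were among its 10 leading genes. The sort had removed Ly6C-low cells, and whether the members mark a passage to them cannot be read from these data. In males, 2 clusters held most of the members' RNA. Apoe was at 2766 CPM in cluster 5 (156 cells, led by Ifit3 and MHC class II genes), at 973 CPM in cluster 2 (525 cells) and at 102 CPM or less in the other clusters, and Gngt2 was at 1050 and 331 CPM in clusters 5 and 2.

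**Figure D1:**
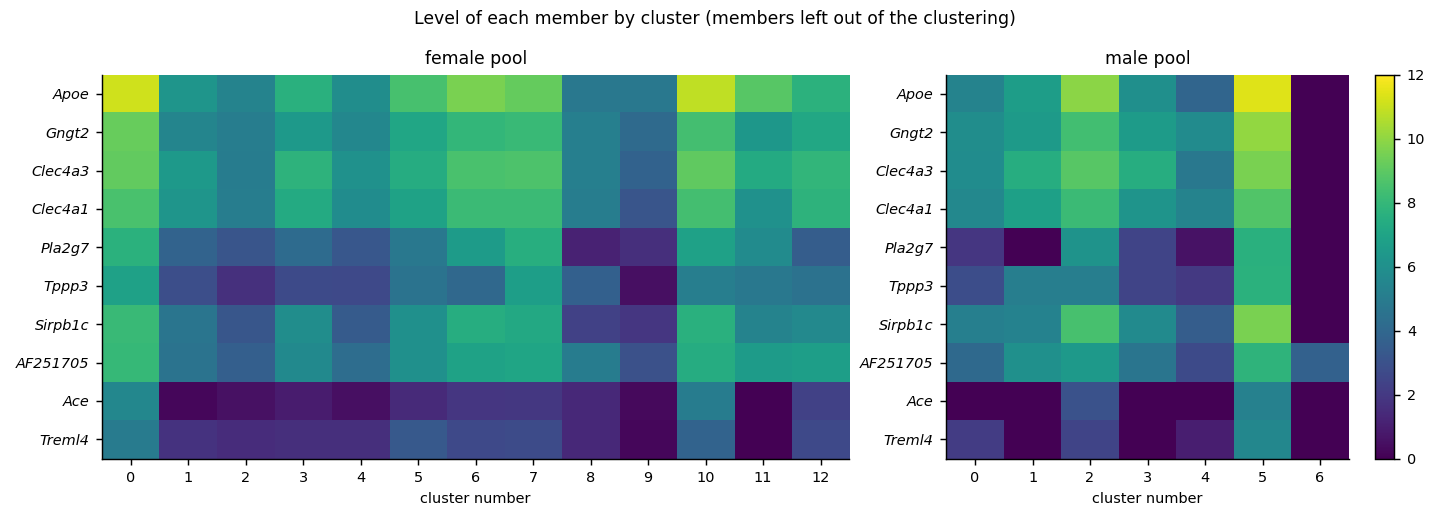
Level of the 10 members (rows) in each cluster (columns) of the female and the male pool, as log2 of CPM plus 1 over all cells of the cluster; colours run from dark (low) to yellow (high). The columns of female clusters 0 and 10 and of male clusters 5 and 2 are the brightest, Apoe reaching 2279 CPM in female cluster 0, and female cluster 9 is dark for every member.

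Within single cells, the members were found together more often than their separate shares would give. Each cell was thinned to 2000 UMIs, which kept 7588 female and 1168 male cells, and the number of cells with both genes of a pair was divided by the number that independent detection within each mouse would give. The ratio was above 1 in 45 of 45 pairs in females, from 1.53 (Clec4a3 and Clec4a1) to 9.78 (Ace and Treml4), with a median of 1.97. Apoe and Gngt2 were both present in 1001 cells against 550 expected (ratio 1.82, 1.65 to 2.17 over the mice). Ace and Treml4, the rarest members, shared 18 cells against 1.84 expected, too few to be read mouse by mouse. In the 17 pairs with at least 5 expected cells in every female, the ratio was above 1 in every mouse for 17. In males, 45 of 45 pairs were above 1, from 1.10 (Clec4a1 and Ace) to 4.97 (Tppp3 and Treml4), with a median of 1.77. Those 2 extremes rest on 5 cells against 4.55 expected and 8 against 1.61, and 0 pairs had 5 expected cells in every male. Single mice lay below 1 in some pairs, at 0.62 for Apoe and Tppp3 in females and 0.79 for Clec4a3 and AF251705 in males. These ratios describe cells that differ in type and cycle stage, and the members had been chosen from the expression of these cells, so they carry no test.

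The rise was graded with the amount of Apoe. Female cells without an Apoe UMI, 68.7% of all, held on average 0.844 of the 9 other members. Cells with 1 Apoe UMI held 1.54, those with 2 to 4 held 2.51, those with 5 to 9 held 3.002, and the 260 cells with 10 or more held 3.33. The corresponding male values were 1.11, 2.33, 2.92, 3.24 and 3.56. Apoe RNA was also unevenly spread over the cells before thinning, which differ in depth. There the 10% of female cells with the most Apoe held 65.5% of its UMIs and the highest cell had 177. For Clec4a3 the same share was 34.3%, and the part of depth in these shares was not tested. Among the non-member genes, those whose values followed Apoe most closely over 7588 female cells (Pearson correlation of log-normalized values, 4650 genes in at least 5% of cells) were the cathepsin gene Ctss (r = 0.384, rank 2 of 4004 in males), the chemokine gene Ccl6 (0.384, rank 4), the lysozyme gene Lyz2 (0.364, rank 10), Wfdc17 (0.343, rank 3), Ifitm3 (0.339, rank 12), Cybb (0.317, rank 20), Cd74 (0.304, rank 6), Fyb (0.300, rank 50), Plbd1 (0.296, rank 35) and Tyrobp (0.296, rank 9). The members Clec4a3, Gngt2, AF251705, Sirpb1c and Pla2g7 took ranks 4, 5, 8, 9 and 12 in females, and Sirpb1c was rank 1 in males. Others lay lower. Clec4a1 was rank 24 in females and 27 in males, and AF251705 and Tppp3 were ranks 37 and 140 in males. In females Tppp3, Ace and Treml4 were not ranked, with r of 0.114, 0.138 and 0.100. The cells behind these correlations share 1 library per sex and 1 depth of 2000 UMIs, and the correlations are weak.

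Summed over the cells of each mouse, 3 of the 10 members rose in old females and none fell. Over all 10386 genes tested in females, 2.4% were called higher and 2.33% lower in old mice, and since the list was drawn up with earlier results in view nothing is read from the count of members. The test was edgeR's quasi-likelihood test with Benjamini-Hochberg adjustment over all genes, here and for every adjusted p on age given in what follows. In a sum over cells, fewer cells that carry a gene and less RNA per cell cannot be told apart.

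Pla2g7 rose the most in log2 terms among the called members. It stood at 24.6, 31.2, 31.2, 31.8 and 25.2 CPM in young females 1 to 5 and at 58.8, 42.8, 43.1, 57.3 and 51.4 CPM in old females 1 to 5. All 5 old females were above all 5 young females, a separation in that direction that 3.61% of all genes showed. The means were 28.8 ± 3.57 and 50.7 ± 7.59 CPM (SD, n = 5 each), a log2 fold change of 0.82 (SE 0.10, adjusted p = 0.000592).

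Gngt2 was at 108, 102, 91.4, 92.9 and 99.4 CPM in young and 122, 132, 178, 146 and 164 CPM in old females, again without overlap. Its mean went from 98.6 ± 6.60 to 149 ± 23.1 CPM (log2 fold change 0.59, SE 0.088, adjusted p = 0.00194). Tppp3 was at 12.7, 16.3, 10.3, 12.7 and 15.3 CPM in young and 29.4, 24.8, 20.6, 25.4 and 15.1 CPM in old females, so that 4 old mice were above all young mice and old female 5 lay among them. Its log2 fold change was 0.75 (SE 0.15, adjusted p = 0.0130), and the call was lost without young female 4 (adjusted p = 0.0519).

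Apoe itself did not pass the test in females, and the old mice split. It was at 405, 451, 486, 436 and 396 CPM in young females 1 to 5, whereas old females 1, 2 and 5 stood at 174, 216 and 226 CPM and old females 3 and 4 at 524 and 448 CPM. The first 3 were below every young mouse and old female 3 was above every young mouse. Depth followed the same split, with medians of 13572, 13983 and 15275 UMIs per cell in old females 1, 2 and 5. Old females 3 and 4 had 10202 and 10106, and the part of depth in the split was not tested. The means were 435 ± 36.3 and 317 ± 157 CPM (log2 fold change -0.44, SE 0.24, adjusted p = 0.311). Old female 1, the lowest, had 6.48% of its cells in cluster 0 against 14.1 to 20.8% in the other old females and 16.7 to 22.0% in young females, but old female 2 had 18.4% and was nearly as low. Old female 1 also had 26.7% of its cells in cluster 7, led by Iigp1, Gbp4 and MHC class II genes, against at most 0.461% in any other female. Over the cells of cluster 7 Apoe was at 576 CPM, Pla2g7 at 180.5 CPM and Tppp3 at 105 CPM, and without old female 1 the log2 fold changes were -0.29 for Apoe, 0.77 for Pla2g7 and 0.66 for Tppp3, of which the last 2 were called. The part of cluster 7 in the values of old female 1 was not tested otherwise.

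None of the receptors was called over all female cells. For Clec4a3 and Clec4a1, 3 of 5 old mice lay below every young mouse, the same old females 1, 2 and 5 that were low for Apoe. Clec4a3 was at 172 ± 10.5 CPM in young and 150 ± 23.8 CPM in old females (log2 fold change -0.19, adjusted p = 0.220), and Clec4a1 at 126 ± 7.71 and 110 ± 18.1 CPM (-0.20, adjusted p = 0.219), which was called without old female 4 (-0.29, adjusted p = 0.0260). Sirpb1c and AF251705 had log2 fold changes of 0.012 and 0.0044, with old mice on both sides of the young range, and their sign turned under other settings. Treml4 was at 4.32 ± 0.836 and 6.01 ± 2.20 CPM (0.45, adjusted p = 0.275) and Ace at 4.38 ± 1.82 and 5.86 ± 3.54 CPM (0.24, adjusted p = 0.767), both on few UMIs, 519 and 555 over all 10 females.

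**Figure D2:**
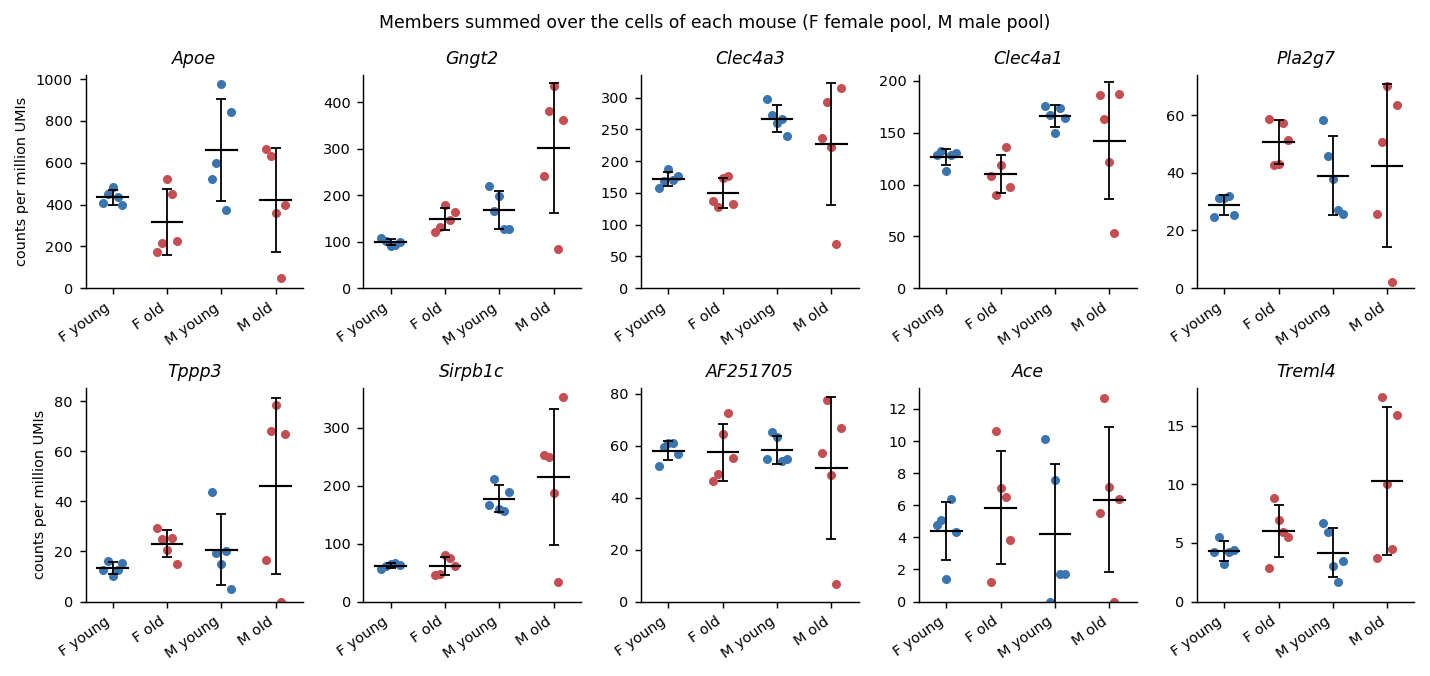
CPM of each member summed over the cells of a mouse, one point per mouse, in young (blue) and old (red) mice of the female (F) and male (M) pool; lines and bars give the mean and SD of 5 mice, and each panel has its own axis from 0. Gngt2 and Pla2g7 are higher in all 5 old females than in any young female, Apoe in old females falls into 3 low and 2 high mice, and 1 old male lies low for most members.

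In males no member was called, and none of 5655 genes was (0%), with 624 (11%) at an unadjusted p below 0.05 and 22 called by DESeq2. Gngt2 was called in 1 other setting, with no filter on low counts (0.82, adjusted p = 0.00231), and without 1 mouse. It had the clearest pattern, at 220, 166, 199, 128 and 128 CPM in young and 242, 382, 436, 84.3 and 362 CPM in old males, where the low value belongs to old male 4. The other 4 old males were above every young male. Male cluster 5, where Gngt2 was highest, held 11.2 to 35.3% of the cells of those 4 old males and 4.72 to 10.7% of the cells of young males. It held 0 of the 49 cells of old male 4. Of those cells, 40.8% were in male cluster 0 (G2 or M phase genes) and 38.8% in male cluster 4 (led by Ung, Mpo and Hells). Clusters were numbered separately in each sex. The part of these shares in the male values was not tested. The log2 fold change was 0.83 (SE 0.28, adjusted p = 0.286) in all mice and 1.05 (adjusted p = 0.00740) without old male 4. Apoe was at 523, 600, 975, 373 and 840 CPM in young and 665, 634, 359, 51.0 and 397 CPM in old males (log2 fold change -0.63, SE 0.38, adjusted p = 0.576), and -0.35 without old male 4, with wide overlap. Tppp3 had a log2 fold change of 0.99 (SE 0.55, adjusted p = 0.531), whereas Pla2g7, called in females, was at 38.9 ± 13.7 and 42.5 ± 28.2 CPM (0.04, adjusted p = 0.985). Ace and Treml4 had 37 and 44 UMIs in all males and were not tested.

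The age effect was not shown to differ between the sexes for any member. The interaction of sex and age called 2 of 8885 genes (0.0225%), none of them a member, with 448 genes (5.04%) at an unadjusted p below 0.05. The largest difference among the members was that of Pla2g7, whose log2 fold change with age was higher by 0.80 in females (SE 0.38, adjusted p = 0.978). For Gngt2 the female change was lower by 0.23 (SE 0.30, adjusted p = 0.988), and for Apoe it was higher by 0.16 (SE 0.49), values whose errors leave room for differences of either sign.

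The members called in sums were also found in more cells of old females, compared at 2000 UMIs per cell. The share for Gngt2 was 19.2 ± 1.34% in young and 27.4 ± 5.04% in old mice (SD, n = 5 each), for Pla2g7 7.66 ± 1.17% and 13.03 ± 2.07%, and for Tppp3 2.65 ± 0.616% and 5.83 ± 1.58%. In each of the 3 all old mice were above all young mice, which gave a two-sided exact permutation p of 0.0079, the smallest that 5 mice against 5 allow. How many of all genes separate in this way was not counted for shares, so these separations are descriptions. None passed adjustment over the 8568 genes (adjusted p = 0.245), and neither did any other gene (0%), while 1027 genes (12%) were below an unadjusted 0.05. For Apoe the share was 33.7 ± 2.96% and 26.4 ± 7.95% (exact permutation p = 0.127). Without thinning, in cells that were deeper in old mice, all 3 were called (adjusted p = 0.0366), the shares for Gngt2 being 46.4% and 65.3%. In that setting 2318 genes were called, so nothing is read from the calls of the members. In males no share passed adjustment (0% of 8179 genes, 521 or 6.37% below an unadjusted 0.05), with Gngt2 at 25.4 ± 3.30% and 35.7 ± 16.3%.

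The age effect was then fitted within each cluster with at least 10 cells in 9 mice, an analysis added after the values over all cells had been seen. Cells of old females were deeper, without overlap between the mice in 6 of the 7 female clusters fitted (not in cluster 9). Mouse medians were 7335 to 9253 UMIs against 6486 to 6896 in cluster 0 and 9287 to 11189 against 7896 to 8096 in cluster 3. Each fit was repeated on cells thinned to 2000 UMIs, which gives every cell the same weight. Thinning leaves the expected share of a gene in a cell's UMIs as it was, so the part of depth in that share was not tested. Gngt2 rose in 6 of the 7 female clusters fitted, and Apoe, which was not called over all cells, fell in 4 of them and was not called in clusters 0, 2 and 9.

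In cluster 0 (726 young and 613 old cells), Apoe was at 2307, 2477, 2264, 2451 and 1913 CPM in young females 1 to 5 and at 1212, 1617, 3076, 2449 and 1742 CPM in old females 1 to 5, with the same 3 old mice low as over all cells. The log2 fold change was -0.15 (SE 0.14, adjusted p = 0.751). Of the 10 members, 5 were called higher and none lower there, where 2.75% of 6216 genes were called higher and 1.22% lower.

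Gngt2 in cluster 0 went from 411 to 551 CPM in young to 592 to 845 CPM in old females (log2 fold change 0.62, SE 0.089, adjusted p = 3.57e-05). Pla2g7 went from 113 to 181 CPM to 228 to 335 CPM (0.92, SE 0.11, adjusted p = 1.31e-06) and Tppp3 from 52.4 to 125 CPM to 134 to 185 CPM (0.84, SE 0.13, adjusted p = 7.89e-05). AF251705, whose sum over all cells was level, rose from 197 to 258 CPM to 295 to 338 CPM (0.45, SE 0.078, adjusted p = 0.000449). For these 4 members every old female was above every young female, and the call held without each mouse in turn and on thinned cells. How many of all genes separate the ages in this way was not counted within clusters. Separations given for this and the following clusters are therefore descriptions. Treml4 was called at a log2 fold change of 0.84 (SE 0.24, adjusted p = 0.0449), which was lost in 7 of the 10 fits that left out a mouse, among them those without young females 1, 3, 4 or 5 and without old females 2, 3 or 5 (adjusted p up to 0.162). Clec4a1 (0.01), Clec4a3 (0.01), Sirpb1c (0.14) and Ace (0.62, adjusted p = 0.195) were not called.

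In cluster 3 (898 young and 408 old cells), 1 member was called higher and 4 lower, against 5.08% and 4% of 7259 genes. The cluster held 21.2 to 26.0% of the cells of young females and 7.60 to 13.8% of those of old females. A change of expression within it and a change in which cells fall into it cannot be told apart here. Apoe was at 244, 186, 455, 243 and 233 CPM in young and 44.6, 105, 110, 134 and 107 CPM in old females, every old mouse below every young mouse. The means were 272 ± 105 and 99.95 ± 33.2 CPM (log2 fold change -1.27, SE 0.17, adjusted p = 1.003e-05), and the fall was -1.38 on thinned cells (adjusted p = 2.27e-07). Clec4a1 was at 190, 188, 171, 177 and 197 CPM in young and 96.9, 92.6, 111, 158 and 93.7 CPM in old females, also without overlap (-0.67, SE 0.11, adjusted p = 7.62e-05).

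Clec4a3 fell by 0.40 on the log2 scale in cluster 3 (adjusted p = 0.00196, and 0.0654 on thinned cells), and AF251705 by 0.52 (adjusted p = 0.0373), a call lost on thinned cells (adjusted p = 0.207) and without any 1 of young females 2, 3 and 5 and old females 1, 2 and 3 (adjusted p up to 0.0961). Gngt2 rose there, from 76.8 ± 15.2 to 119 ± 35.1 CPM (0.66, SE 0.15, adjusted p = 0.00472), with 0.49 on thinned cells (adjusted p = 0.248). Pla2g7, so much higher in old mice in cluster 0, was at 18.4 ± 4.82 and 17.2 ± 7.51 CPM in cluster 3 (-0.14, adjusted p = 0.831).

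In cluster 6, Apoe was at 1134, 1047, 685, 853 and 979 CPM in young and 318, 199, 919, 659 and 565 CPM in old females, with 4 old mice below all young mice and old female 3 among them. Its log2 fold change was -0.71 (SE 0.19, adjusted p = 0.0216), and the call was lost with DESeq2 (adjusted p = 0.276) and without young female 1, 2 or 5 (adjusted p up to 0.0813). Gngt2 rose by 0.79 (SE 0.14, adjusted p = 0.000632) and Pla2g7 by 0.60 (SE 0.14, adjusted p = 0.0112), the latter lost without young female 5 (adjusted p = 0.0560) and on thinned cells (adjusted p = 0.0603). In this cluster 3.04% of 6212 genes were called higher and 1.85% lower. Cluster 6 held 12.5 to 15.2% of the cells of young females and 6.68 to 24.1% of those of old females. The part of these shares was not tested.

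Among the dividing clusters, cluster 1 had the largest changes in both genes. Apoe was at 116, 122, 302, 96.2 and 83.7 CPM in young and 32.8, 44.3, 69.4, 59.3 and 20.8 CPM in old females (log2 fold change -1.31, SE 0.25, adjusted p = 0.00324), and Gngt2 at 19.7 to 30.3 and 44.0 to 104 CPM (1.18, SE 0.20, adjusted p = 0.00102), neither with overlap, where 1.41% of 7427 genes were called higher and 0.714% lower. Pla2g7 was at 8.05 ± 1.99 and 17.3 ± 6.06 CPM in cluster 1 (1.001, adjusted p = 0.0505). In cluster 4, Apoe fell by 1.12 (SE 0.22, adjusted p = 0.00304) and Gngt2 rose by 0.69 (SE 0.15, adjusted p = 0.00880), against 1.02% of 7257 genes called higher and 0.675% lower. The fall of Apoe in cluster 4 was not called with DESeq2 (adjusted p = 0.236) or on HTODemux singlets (-0.44, adjusted p = 0.424), and the rise of Gngt2 was lost without young female 4 (adjusted p = 0.198).

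In cluster 2, Gngt2 rose by 0.74 (SE 0.18, adjusted p = 0.0274, 1.21% of 7706 genes called higher), a call lost without young female 2, 3 or 4 or old female 5 (adjusted p up to 0.123), while Apoe was at 45.8 ± 9.36 and 30.8 ± 13.5 CPM (-0.53, SE 0.19, adjusted p = 0.168) and was called without old female 3 (-0.84, adjusted p = 0.00175). In clusters 2 and 4 both genes, and in cluster 1 Gngt2, had too few UMIs to be tested on thinned cells, where Apoe in cluster 1 stood at -0.98 (adjusted p = 0.0484). In cluster 9 no member was called, against 0.497% of 7652 genes. Apoe stood at 30.7 ± 7.91 and 22.3 ± 5.64 CPM (-0.46, SE 0.17, adjusted p = 0.378) and Gngt2 at 13.5 ± 2.78 and 18.9 ± 4.98 CPM (0.31, SE 0.19, adjusted p = 0.721). In old females Apoe was at 18.1 to 31.8 CPM in cluster 9 and at 20.8 to 69.4, 20.8 to 53.5 and 23.4 to 47.6 CPM in clusters 1, 2 and 4. In young females Gngt2 was at 11.4 to 18.2 CPM in cluster 9 and at 19.7 to 30.3 CPM in cluster 1. The levels in all 4 of these clusters also include free RNA of the pool, whose part was not tested.

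**Figure D3:**
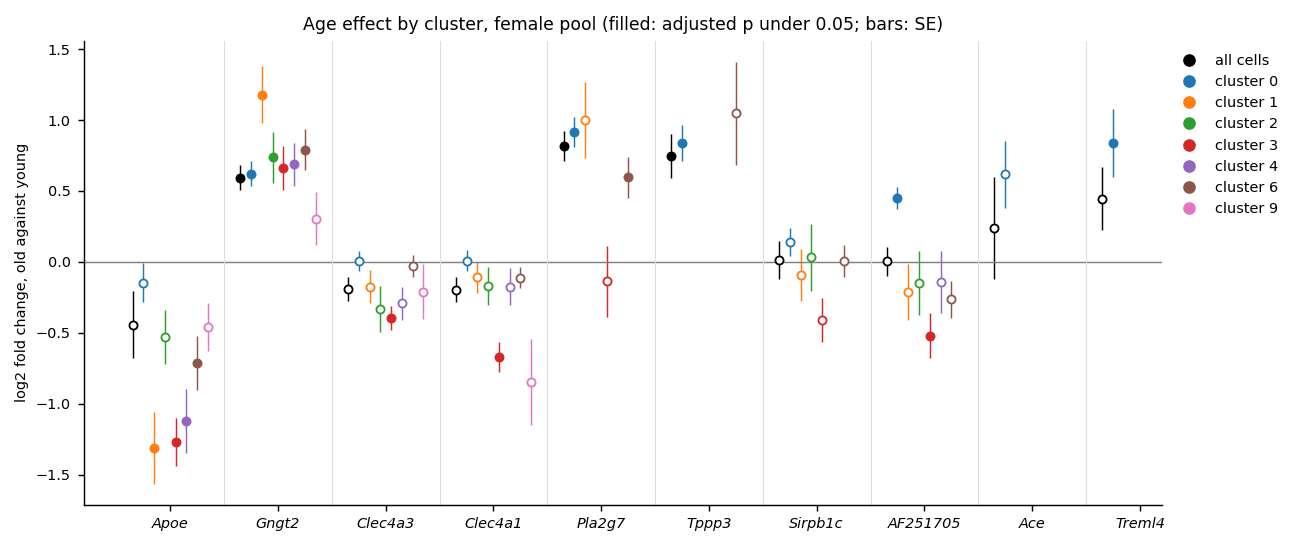
Log2 fold change of old against young females for each member over all cells (black) and within 7 clusters (colours), with SE bars; filled points have an adjusted p below 0.05, and members too sparse to be tested in a cluster have no point. Gngt2 lies above 0 in every fit, Apoe lies below 0 in every fit but is near it in cluster 0 (-0.15), and Pla2g7 runs from 1.001 in cluster 1 and 0.92 in cluster 0 to -0.14 in cluster 3.

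**Figure D4:**
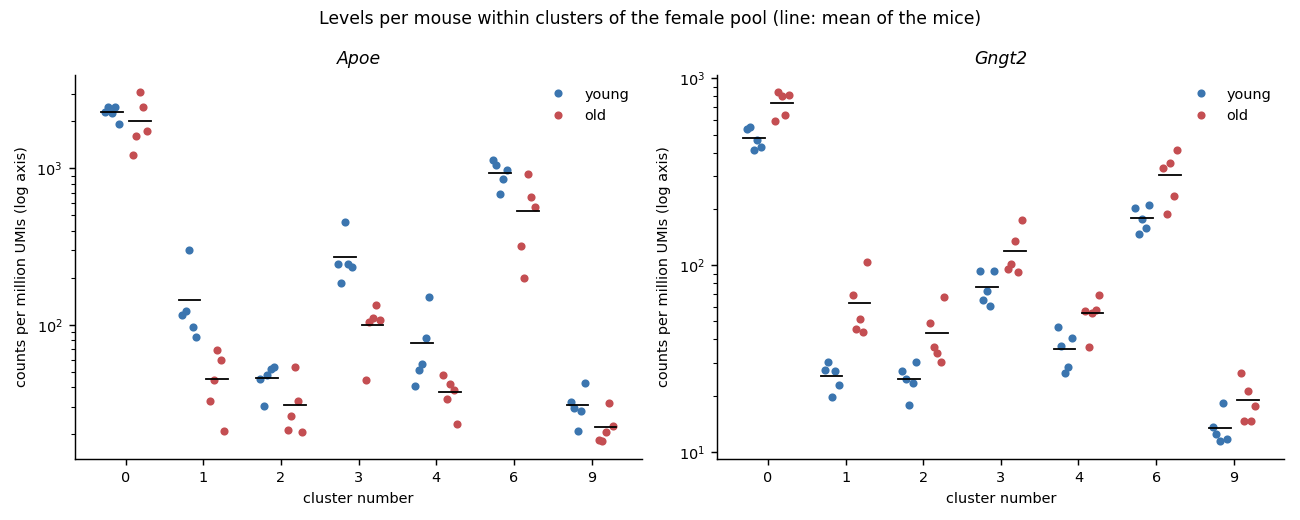
CPM of Apoe (left) and Gngt2 (right) in 7 clusters of the female pool on a log axis, one point per mouse, young in blue and old in red, lines at the means of 5 mice. In cluster 3 the 5 old mice lie below the 5 young mice for Apoe, 99.95 against 272 CPM on average, while for Gngt2 the old mice lie higher, 119 against 76.8 CPM.

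Because a change called in one cluster and not in another is not a difference between them, the age effects of each cluster and of cluster 0 were compared directly, in 1 fit with the mouse as a block, which called 0.143% (cluster 1), 0.536% (cluster 2), 1.89% (cluster 3), 0.309% (cluster 4), 1.55% (cluster 6) and 0.54% (cluster 9) of all genes tested. The age effect on Apoe was lower than in cluster 0 by 1.23 on the log2 scale in cluster 3 (SE 0.15, adjusted p = 6.80e-07), where 1.22% of 7186 genes had a lower effect, and by 0.65 in cluster 6 (SE 0.097, adjusted p = 3.74e-06), where 1.15% of 6721 genes did. Both held on thinned cells, at -1.40 (adjusted p = 4.94e-09) and -0.58 (adjusted p = 3.73e-05), and without each mouse in turn. The part of the shares of cells in each cluster in these differences was not tested. The difference was -1.17 in cluster 1 (SE 0.18, adjusted p = 0.000359, 0.104% of 7672 genes lower) and -0.98 in cluster 4 (SE 0.22, adjusted p = 0.0290, 0.18% of 7779 genes lower), but on thinned cells neither was called, at -0.90 (adjusted p = 0.488) and -0.19 (adjusted p = 0.981), and that in cluster 4 was also lost without young female 4 or 5 or old female 3, 4 or 5 (adjusted p up to 0.293). In clusters 2 and 9 Apoe differed from cluster 0 by -0.41 (adjusted p = 0.145, and 0.0201 without young female 2) and -0.33 (adjusted p = 0.641).

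Cluster 3 also differed from cluster 0 in 5 further members, each with a lower age effect. The difference was -0.67 for Clec4a1 (SE 0.12, adjusted p = 0.000531) and -0.91 for AF251705 (SE 0.16, adjusted p = 0.000610), both kept on thinned cells and without each mouse in turn. It was -1.06 for Pla2g7 (SE 0.23, adjusted p = 0.00570), which was not called on thinned cells (-0.55, adjusted p = 0.745) or without young female 4 or old female 3 (adjusted p up to 0.0769). Clec4a3 (-0.43, SE 0.10, adjusted p = 0.0192) lost the call without young female 1, 2 or 5 or old female 3 (adjusted p up to 0.129). Sirpb1c (-0.57, SE 0.14, adjusted p = 0.0267) lost it on thinned cells (adjusted p = 0.287) and without young females 1, 2, 3 or 5 or old females 1, 2 or 3 (adjusted p up to 0.195). In cluster 6, AF251705 differed by -0.68 (SE 0.13, adjusted p = 0.000532), and on thinned cells by -0.63 (adjusted p = 0.256). For Gngt2 none of the 6 differences from cluster 0 was called, and they ran from -0.37 (SE 0.20) in cluster 9 to 0.56 (SE 0.19, adjusted p = 0.314) in cluster 1.

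Male clusters gave fewer cells and no called member. Cluster 2 could be fitted in 9 males, since old male 4 had 2 cells there, and 0.105% of 2847 genes were called. Apoe was at 772, 825, 1926, 906 and 1523 CPM in young males and at 1436, 311, 704 and 286 CPM in old males 1, 2, 3 and 5, with 3 old mice below all young mice (log2 fold change -0.55, SE 0.30, adjusted p = 0.575), and it was called without old male 1 (-1.34, adjusted p = 0.00735). Gngt2 was at 328 ± 74.9 and 443 ± 102 CPM (0.41, SE 0.17, adjusted p = 0.432), and Pla2g7 at 85.5 ± 16.8 and 57.5 ± 11.7 CPM (-0.55, adjusted p = 0.533). Male cluster 0 was led by Nusap1, Cdca2 and Prc1, with 7 of 7 G2 or M phase markers at least 2-fold higher. It shares only its number with female cluster 0. In male cluster 0 (9 mice, 0.0477% of 2097 genes called), Gngt2 was the one member with enough UMIs to be tested, at 33.6 ± 30.5 and 108 ± 48.7 CPM (1.58, SE 0.44, adjusted p = 0.202). Apoe had too few UMIs there for the test, 57 over the 9 mice. It was at 15.0 ± 6.90 CPM in young and 79.5 ± 41.4 CPM in 4 old males, each of which was above every young male. In the female clusters fitted, among them cluster 1 with G2 or M phase genes, Apoe was lower in old mice. Whether the sexes differ in such cells was not tested. In male cluster 4 none of the members had enough UMIs.

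The fixed lists of other genes of these pathways moved in both directions. Of 24 genes on the Ly6C-low list, 17 were tested over all female cells, 2 rose (Fcgr4, an Fc receptor, log2 fold change 1.05, adjusted p = 0.0152, and Lair1, a collagen receptor, 0.41, adjusted p = 0.0175) and 2 fell (the transcription factor Klf2, -0.36, adjusted p = 0.00881, and Lst1, -0.33, adjusted p = 0.0156), with a median of -0.05 beside -0.0044 over all genes tested. In cluster 0, 14 of them were tested and 3 rose (Fcgr4 by 1.49, Lair1 by 0.89 and the integrin gene Itgal by 0.40) while none fell, beside 2.75% and 1.22% of all genes. In cluster 3, 1 rose (Cebpb by 0.28) and 5 fell (among them Csf1r by 0.37 and Cx3cr1 by 0.52), beside 5.08% and 4%. Of the 12 genes of classical monocytes, 3 rose over all female cells (Ly6c2, which encodes Ly6C, by 0.25, Chil3 by 0.94 and Vcan by 1.21) and none fell, beside 2.4% and 2.33% of all genes. In cluster 0, 3 rose and 3 fell (Fn1 by 0.66, Cd177 by 0.61 and F13a1 by 0.37), and in cluster 3, 4 rose and 3 fell. Of 18 genes of lipid handling, 14 were tested, Plin2, a lipid droplet coat protein, rose by 0.42 (adjusted p = 0.0110) and Lipa, the lysosomal acid lipase, fell by 0.33 (adjusted p = 0.0229), with a median of -0.09. In males none of the genes on the 3 lists was called, and 2, 5 and 1 of the 15, 12 and 13 tested were below an unadjusted 0.05.

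Females had in addition been stained with 6 surface antibodies, and the rule that names the members reads RNA only. Whether antibody values bore on the drawing up of the list is not known, so the tests that follow are no independent support for it. For each member, the antibody signal (log2 of the count plus 1, centred over the 6 antibodies of a cell) was compared between cells with and without a UMI of the gene within each mouse, at 2000 UMIs per cell, by a two-sided exact sign-flip permutation test over the 10 females and adjustment over 6924 genes. Tppp3, Ace and Treml4 had fewer than 5 such cells in some mice and were not tested. On this centred scale, cells with the gene had a lower Ly6C signal for each of the other 7 members, in 10 of 10 mice.

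The mean difference in Ly6C was -0.37 ± 0.095 for Apoe (SD over 10 mice, from -0.56 to -0.26), -0.35 ± 0.14 for AF251705, -0.34 ± 0.050 for Gngt2, -0.34 ± 0.070 for Pla2g7, -0.34 ± 0.041 for Sirpb1c, -0.30 ± 0.063 for Clec4a3 and -0.25 ± 0.10 for Clec4a1. Each had an exact permutation p of 0.00195, the smallest that 10 mice allow, and an adjusted p of 0.0188. Such calls are common in this comparison, with 11.3% of genes in cells with more Ly6C and 6.69% in cells with less. On the centred scale, 0.0867% of the genes tested had a lower mean difference than Apoe and 0.737% a lower one than Clec4a1. Ranks without centring are not given here, and these ranks describe the listed genes and are no support for the list. The calls did not hold when the counts were not centred, where the differences were -0.14 to -0.05 and the lowest adjusted p was 0.0583, or on HTODemux singlets, where they were -0.57 to -0.18 and the lowest adjusted p was 0.0720, and no gene was called in either.

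CD115, the receptor for CSF1, was also lower in cells with each of the 7 members, by 0.27 (Gngt2) to 0.46 (Pla2g7) on the same scale in 10 of 10 mice (exact permutation p = 0.00195, adjusted p = 0.0178, 9.73% of all genes called lower). Centring makes the 6 differences of a gene sum to 0, so that a rise in one antibody lowers the others. Without centring CD115 was lower by 0.072 (Gngt2) to 0.22 (Clec4a3) and was called for 4 of the 7 members (Clec4a3, Clec4a1, Pla2g7 and AF251705, adjusted p = 0.0382), on median counts of only 4 to 5 per cell. CD11b, an integrin of myeloid cells, was higher by 0.46 (Clec4a1) to 0.60 (Pla2g7) in 10 of 10 mice (adjusted p = 0.00812, 21.8% of genes called higher), and without centring by 0.58 (Clec4a1) to 0.89 (Pla2g7), called for each of the 7 (adjusted p = 0.00924). The 9.73% and 21.8% of genes belong to the centred values. Shares of all genes called without centring are not given here, so nothing is read from those counts of members. MHC class II was 0.14 to 0.26 higher without a call (adjusted p = 0.124 to 0.220, and 0% of genes called, with 911 or 13.2% below an unadjusted 0.05), and by 0.090 to 0.15 without old female 2, whose own difference for Apoe was 0.991. Flt3 and CD11c differed by less than the spread between mice for each of the 7 (348 and 441 genes, 5.03% and 6.37%, below an unadjusted 0.05, 0% called). By the number of members in a cell, Ly6C counts had a median over mice of 532 in cells with 0 members, 512 with 1 to 2, 476 with 3 to 4 and 442 with 5 to 10, and CD11b counts of 25.5, 39, 58.5 and 70.3. These median Ly6C counts fell with the number of members within a sort gate that kept Ly6C-high cells only. Each member had a lower level in the dividing clusters than in cluster 0, and the part of the cell cycle in these differences was not tested.

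**Figure D5:**
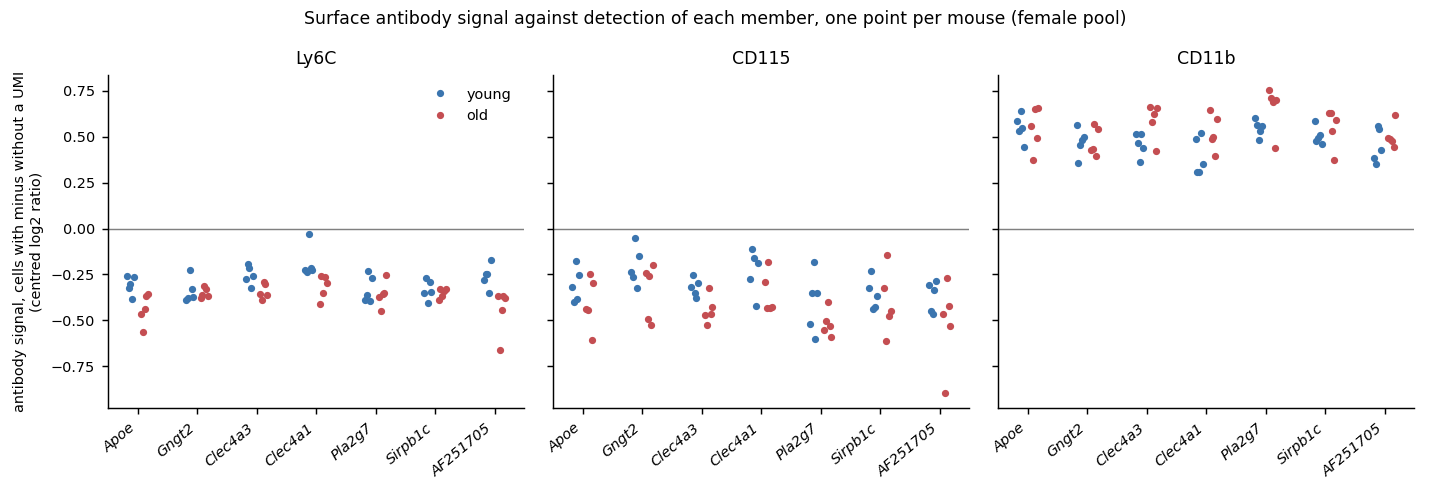
Difference in Ly6C, CD115 and CD11b antibody signal (centred log2 ratio) between cells with and without a UMI of each of 7 members, one point per female mouse, young in blue and old in red. All points for Ly6C and CD115 lie below 0 and all for CD11b above it, with means for Apoe of -0.37, -0.36 and 0.55.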

How the data were processed

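Single-cell 3′ RNA, hashtag and, for females, surface antibody libraries were measured by the authors, who aligned reads with STAR 2.5.1 in Cell Ranger 4.0.0 to mm10, per the labels and methods; the matrix headers name versions 3.1.0 (female) and 7.0.0 (male), and which made each matrix is not settled. The deposited matrices hold raw UMI counts per gene and cell, filtered to cells by the authors. Cells with more than 200 genes and less than 5% mitochondrial UMIs were kept and given to the mouse of the leading hashtag, which needed at least 10 counts and 3 times the next one. This is meant to remove doublets of different mice, and how many remain was not tested, whereas doublets of 1 mouse remain. UMIs were summed per mouse and given as counts per 1000000 UMIs (CPM), not divided by gene length, so levels of different genes are not compared as expression. Total UMIs per mouse ran from 2861770 to 21892113 in females and from 330586 to 1108320 in males, and intervals cover counting error only.

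Age was tested per sex with edgeR 4.0.16 (quasi-likelihood, TMM, filterByExpr, R 4.3.3) and Benjamini-Hochberg adjustment over all genes tested, at 0.05. Cells were clustered with scanpy 1.11.5 (Leiden resolution 0.5, 20 components, 2000 variable genes, 15 neighbours) without the members and list genes. DESeq2 1.42.0, Seurat 5.3.0 (HTODemux) and the other settings described in the closing section served as alternatives, and the fits were tested on simulated counts. The members and lists were chosen with earlier results of these data known. Genes beyond the members are the list genes called in a fit and the 10 whose values were most correlated with Apoe. Each hashtag is a separate mouse, given by the deposited hashtag table, which numbers the mice 1 to 5 in each age, and the correlation of same-numbered mice ran from -0.055 to 0.071, so the numbers were not taken as pairs.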

Additional observations from a re-analysis of the deposited data

Results flagged for a closer look

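Clec4a1 in young female 3 stood at 113 CPM, apart from the other 4 young females at 128 to 133 CPM. It was the 1 group of 40 in which the lowest or highest mouse stood apart by Dixon's criterion, and chance alone flags about 1 in 20.

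The age effect differed from that in cluster 0, by a test of the difference itself, in 10 cases, each with a lower effect than in cluster 0. A lower effect is not by itself a fall in old females. Pla2g7 was level in cluster 3 (log2 fold change -0.14) and rose in cluster 0 (0.92). For Apoe the log2 differences were -1.17 in cluster 1, -1.23 in cluster 3, -0.98 in cluster 4 and -0.65 in cluster 6. In cluster 3 they were -0.43 for Clec4a3, -0.67 for Clec4a1, -1.06 for Pla2g7, -0.57 for Sirpb1c and -0.91 for AF251705. In cluster 6 the difference for AF251705 was -0.68. Of these, the differences of Apoe in clusters 3 and 6 and of Clec4a1 and AF251705 in cluster 3 were called on thinned cells and without each mouse in turn.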

How the results depend on the processing

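Among values of single members, 1285 alternatives kept direction and call, 67 lost the call, 9 gained it and 67 turned direction; the cause was not tested. The number of genes called in females (491) was 213 on thinned cells and 232 to 781 without 1 mouse (232 without young female 5, 781 without old female 4). In males it was 22 with DESeq2, 98 with no filter, 8 with the replicate block and 11 without the clusters led by genes of other cell types. It was 0 to 38 without 1 mouse (38 without old male 1, 24 without old male 4). The interaction called 1 gene on HTODemux singlets, 1 without the hashtag margin and 0 to 3 without 1 mouse. Female shares called 2318 genes when not thinned. For Ly6C, 0 genes were called on log2 counts, 0 on HTODemux singlets, 7619 without thinning and 759 to 1253 without 1 mouse. With the replicate number as a block, 398 genes were called in females, and no member's call changed in either sex.

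The direction turned for Sirpb1c in females without the hashtag margin (-0.0084) and with the block (-0.032), for AF251705 with the block (-0.015), and in males for Pla2g7 on HTODemux singlets (-0.13) and with the block (-0.040). It turned for Gngt2 in cluster 3 against 0 on thinned cells (-0.028). In the interaction it turned for Clec4a1 with DESeq2 (0.011), no filter (0.017), HTODemux (0.18) and no margin (0.0090), and on HTODemux singlets for Gngt2 (0.089), Tppp3 (0.32) and Ace (0.034). Share differences in percentage points turned for AF251705 in females at 3000 UMIs (-1.60), and in males for Sirpb1c not thinned (2.84) and at 3000 UMIs (3.06) and Pla2g7 on HTODemux singlets (-0.23). Without 1 mouse, values on both sides of 0 were -0.098 to 0.10 (Sirpb1c) and -0.098 to 0.074 (AF251705) in females, and -0.27 to 0.28 (Pla2g7) and -0.35 to 0.073 (AF251705) in males. For Gngt2 against cluster 0 they were -0.019 to 0.25 (cluster 2), -0.075 to 0.22 (cluster 3) and -0.054 to 0.22 (cluster 4). In the interaction they were -0.17 to 0.18 (Clec4a1), -0.11 to 0.41 (Apoe), -0.15 to 0.17 (Clec4a3), -0.99 to 0.13 (Ace), -0.79 to 0.16 (Tppp3) and -0.059 to 0.34 (AF251705). For shares they were -0.758 to 0.661 (AF251705) and -0.112 to 2.14 (Sirpb1c) in females, and -3.30 to 5.36 (Sirpb1c) and -0.299 to 2.93 (Pla2g7) in males.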
